A study of Mus musculus with 16 samples.

Results

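The data described here are 4 RNA-seq libraries of mouse small intestinal organoids, 2 wild-type (WT) and 2 with tamoxifen-induced deletion of Cul4b (KOCAG), out of 16 libraries in the series. They were chosen as the libraries labelled OWT1 and OWT2, of genotype WT, and OKO1 and OKO2, of genotype Cullin 4b KO, and all genes of their count table entered, of which 13598 of 52636 had enough counts to be tested. All 4 cultures came from small intestinal crypts of the C57BL/6 background, embedded in Matrigel and kept with epidermal growth factor, Noggin and R-spondin 1. In KOCAG (CAG-CreERT2; Cul4b fn/Y), the conditional Cul4b allele is cut by CreERT2, a Cre recombinase that acts only when 4-hydroxytamoxifen (4-OHT) is bound, and that the CAG promoter expresses in every cell type. Where the study introduces its mice, WT stands for Cul4b fn/Y without Cre, but no genotype is repeated for the WT cultures of this experiment, and whether they received 4-OHT is not stated, so loss of Cul4b and effects of Cre activity or of 4-OHT cannot be told apart. How long after induction the RNA was taken, whether the medium held Wnt3a, and whether replicates came from separate animals are not stated either, so the p-values measure only the spread between these libraries.

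CUL4B is a cullin, the scaffold of a ubiquitin ligase that holds DDB1, a RING protein and an exchangeable substrate receptor, and so marks chosen proteins for the proteasome. An intestinal organoid is a closed epithelium in which stem cells marked by Lgr5 divide and give rise to absorptive enterocytes and to the secretory Paneth, goblet, enteroendocrine and tuft cells, with no stroma or blood cells. After injury such an epithelium is known to switch on a set of genes that are active in the fetal gut and in wound repair, many of them targets of the YAP pathway.

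The libraries held 8291154 and 7601828 counts in WT and 7348191 and 10462275 in KOCAG, so that 3 counts, taken as the floor, were worth 0.287 to 0.408 CPM (counts scaled to the library total by the TMM method). Libraries of a genotype varied with a biological coefficient of variation of 0.0815, and the median log2 fold change of all tested genes was 0.00121. Mitochondrial transcripts took 3.24 to 3.40% of the counts in all 4 libraries. The summed level of 10 epithelial markers was 9149 to 9646 CPM in WT and 11780 to 13120 CPM in KOCAG, while the sum of 12 fibroblast markers was 1.94 to 2.05 CPM in WT and 2.40 to 4.45 CPM in KOCAG, with Acta2 and Lum at 0 counts throughout. In such bulk RNA, more cells of a type and more RNA per cell cannot be told apart.

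Deletion was read first from the target itself. Cul4b (ENSMUSG00000031095), on chromosome X from 38533274 to 38576196 in the positions of the table, had 72.9 and 70.1 CPM in the WT libraries and 3.34 and 5.19 CPM in the KOCAG libraries. The groups did not overlap, the mean going from 71.5 ± 1.97 CPM in WT to 4.26 ± 1.31 CPM in KOCAG (SD, n = 2 each), and the log2 fold change was -4.02 (SE 0.16, adjusted p = 1.93e-06) by the quasi-likelihood test of edgeR, whose p-values were adjusted across the 13598 genes by the Benjamini-Hochberg method here and below. Some Cul4b reads thus remained in KOCAG. Leaving out 1 library at a time moved the value between -4.42 and -3.80. Of 18 other tested genes within 2000000 bases of Cul4b, 7 passed an adjusted p under 0.05 and 0 of those differed by at least 2-fold. Among all tested genes 31.5% passed and 8.6% also differed by at least 2-fold. The paralogue Cul4a, which can assemble the same kind of ligase, had 122 and 116 CPM in the WT libraries and 114 and 112 CPM in the KOCAG libraries, and its log2 fold change was -0.08 (adjusted p = 0.491). Over all tested genes 18.1% were called higher and 13.4% lower. Among 36 genes of the CUL4 ligases and their substrate receptors 3 were called higher (8.33%) and 7 lower (19.4%), Cul4b among them. These counts were 6 and 11 without KOCAG replicate 2, and 4 were lower with either WT library left out. Dcaf17, one of the receptors, was the other member lower by at least 2-fold, from 82.3 and 81.4 to 35.6 and 44.3 CPM. Ddb1, the adaptor common to all these ligases, had a log2 fold change of -0.01 (adjusted p = 0.929).

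The comparison asks what else changed in an epithelium from which CUL4B was removed within the culture. An adjusted p under 0.05, the meaning of called below, was reached by 4278 of the 13598 genes (31.5%), 2455 of them higher in KOCAG (18.1%) and 1823 lower (13.4%). A gene was named changed if it also differed by at least 2-fold, which left 1169 genes (8.6%), 865 higher (6.36%) and 304 lower (2.24%). The median log2 fold change was 1.54 among the changed genes that were higher and -1.35 among those that were lower. A difference of at least 4-fold was seen in 227 genes that rose and 43 that fell, and one of at least 8-fold in 54 and 10. Of the changed genes 1021 were protein-coding, 821 of them higher and 200 lower, and 148 were of other classes, mostly pseudogenes and non-coding RNAs. With 2 libraries a group, 69.7% of all tested genes did not overlap between groups, and an exact permutation of the labels cannot go below a p of 0.333.

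**Figure D1:**
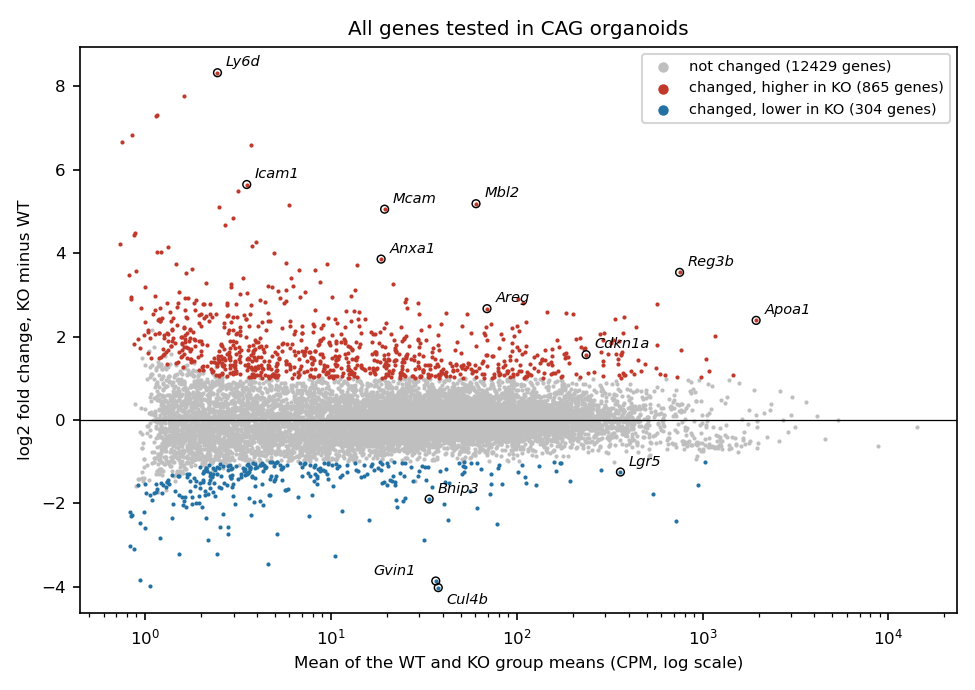
Each point is 1 of 13598 tested genes, placed by the mean of its WT and KOCAG group means (CPM, log scale) and its log2 fold change (KOCAG minus WT). The 865 red genes were higher and the 304 blue genes lower by at least 2-fold at an adjusted p under 0.05, and Cul4b stands at -4.02.

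The largest rises among protein-coding genes with at least 20 counts in each KOCAG library began with 2 genes that had 0 counts in both WT libraries. Ly6d, a surface protein of stratified and progenitor epithelia, had 0 and 0 counts in the WT libraries and 50 and 30 counts in the KOCAG libraries. Against a floor of 3 counts in a WT library it was at least 12.3-fold higher. Krt5, the keratin of basal cells, had 0 and 0 counts in the WT libraries and 23 and 34 counts in the KOCAG libraries and was at least 8.08-fold higher. Several further genes had 3 counts or fewer in each WT library, so their size is given as the ratio of counts relative to the library totals, with an interval for counting error only. For Zfp365 this ratio was 116 (95% exact interval 20.5 to 4620.0). Icam1, an adhesion molecule that leukocytes bind, had 1 and 1 counts in the WT libraries and 48 and 75 counts in the KOCAG libraries, a ratio of 54.9 (95% exact interval 14.9 to 458). Abcb1b, a drug efflux pump, had 2 and 3 counts in the WT libraries and 89 and 112 counts in the KOCAG libraries, a ratio of 35.9 (95% exact interval 15.1 to 112). The ratio was 48.2 (95% exact interval 13.0 to 403) for Fam198b, 30.0 (95% exact interval 9.99 to 148) for the ion cotransporter gene Slc12a4, 26.2 (95% exact interval 8.67 to 129) for Rgs5 and 17.8 (95% exact interval 7.96 to 49.6) for Tmigd1, an adhesion molecule of the brush border. Genes that were better covered in WT rose nearly as far. Mbl2, a circulating lectin of innate immunity, had 2.29 and 4.15 CPM in the WT libraries and 164 and 71.6 CPM in the KOCAG libraries, and its KOCAG libraries differed from each other although both stood far above WT. Its log2 fold change was 5.18 (SE 0.45, adjusted p = 4.09e-05). Mcam, a cell adhesion molecule, had 0.964 and 1.30 CPM in the WT libraries and 40.3 and 35.4 CPM in the KOCAG libraries, with a log2 fold change of 5.05 (SE 0.22, adjusted p = 1.93e-06). The set also held the annexin Anxa1 with a log2 fold change of 3.85 and the monocarboxylate transporter Slc5a12 with 3.77. Ano3 had 0 and 1.17 CPM in the WT libraries and 10.3 and 8.46 CPM in the KOCAG libraries, so its size rests on WT libraries that differed, and 1700007K13Rik had a log2 fold change of 4.26.

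The largest falls after Cul4b were smaller, and many lay in genes of metabolism. Gvin1, a large interferon-inducible GTPase, had 94.8 and 42.5 CPM in the WT libraries and 5.28 and 4.33 CPM in the KOCAG libraries, and its log2 fold change was -3.86 (SE 0.37, adjusted p = 7.14e-05). It has near-identical copies in the same cluster, so its counts are uncertain. Me3, a mitochondrial malic enzyme, had 4.34 and 4.41 CPM in the WT libraries and 0.695 and 0.288 CPM in the KOCAG libraries, with a log2 fold change of -3.21 (SE 0.45, adjusted p = 5.83e-04). Ppp1r3b, which brings a phosphatase to glycogen, fell from 29.3 and 24.8 to 3.75 and 6.15 CPM, and Ak4, a mitochondrial adenylate kinase, from 108 and 93.2 to 16.1 and 29.1 CPM. The complement proteases C1ra and C1rl fell by log2 values of -2.72 and -2.30. The set also held 2610528A11Rik (-3.25), Cyp2c70 (-2.57), Selenbp2 (-2.56), Upk3b (-2.17), Pbld1 (-2.08), Ces1c (-2.07) and Myl9 (-2.04). Adjusted p-values of the genes named here other than Cul4b lay between 1.05e-05 for 2610528A11Rik and 0.00486 for Ces1c. No overlap between the groups was a condition for being named here, and 69.7% of all tested genes met it.

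To describe the changed genes by function, 35 gene lists were read against the shares of all genes, 18.1% called higher and 13.4% lower. The lists were chosen with earlier results of these data known, so their shares describe them and test nothing. Of the 1169 changed genes 248 were in at least 1 list, so most changed genes stand outside them. Lists in which most tested members were called higher included enterocyte function, enteroendocrine and Paneth cells, regenerative genes, p53 targets, xenobiotic metabolism and interferon response. Lists in which most tested members were called lower were hypoxia with glycolysis, sterol and fatty acid synthesis, and ribosomal proteins. Counts of 3 or fewer members in a direction often moved when 1 library was left out. In a fit that shared its spread with the other organoid experiment of the series the counts were smaller, with 12 regenerative genes, 13 p53 targets, 5 interferon and 2 enteroendocrine genes called higher and 4 hypoxia and 20 ribosomal protein genes called lower.

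**Figure D2:**
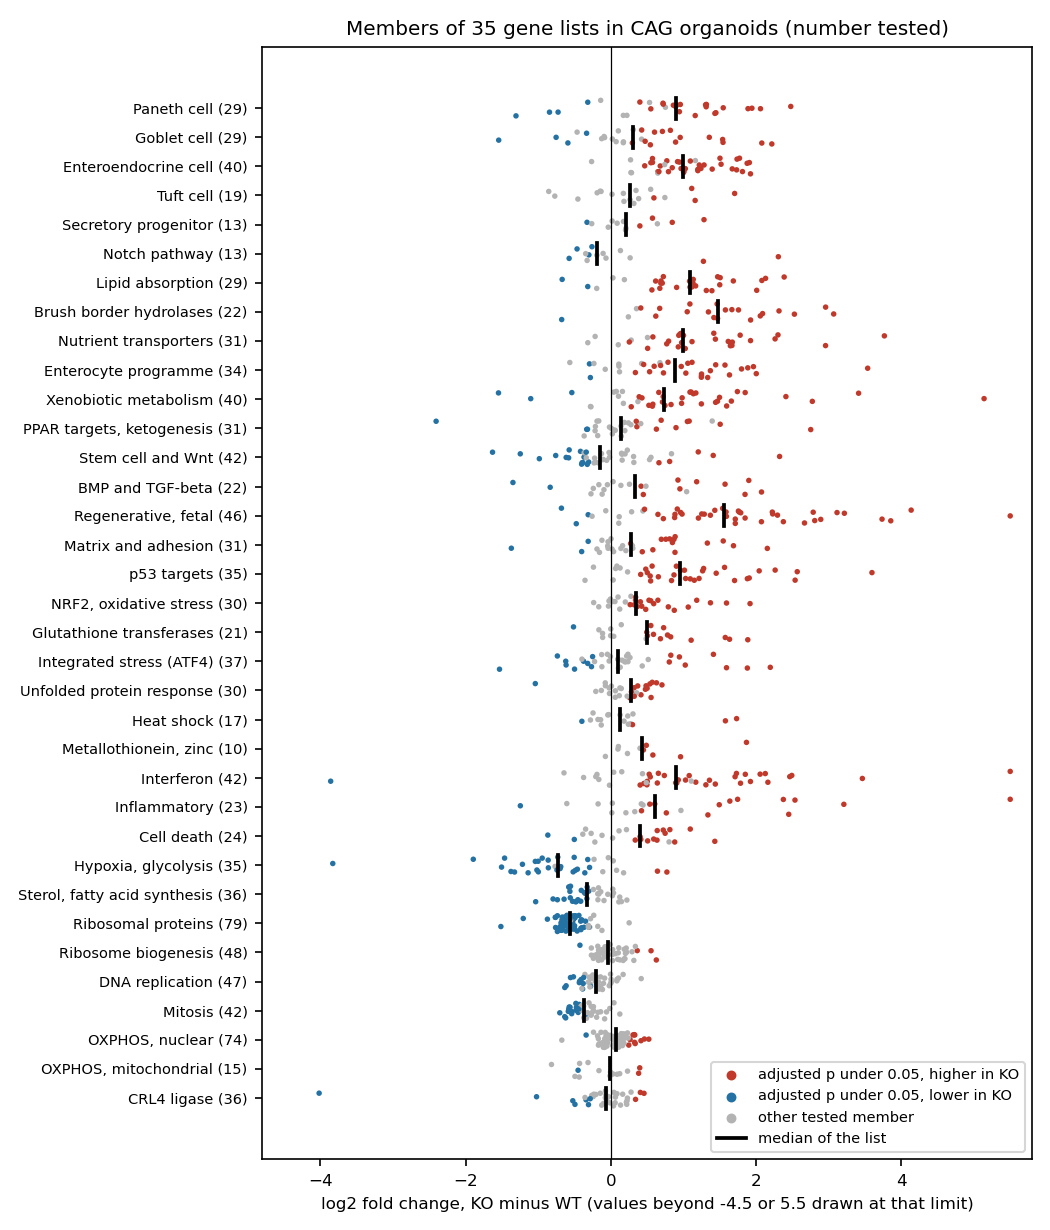
Each point is a tested member of 1 of 35 gene lists, placed by its log2 fold change (KOCAG minus WT), red or blue if its adjusted p was under 0.05, and each bar is the median of the list. The medians run from -0.73 for hypoxia and glycolysis to 1.56 for regenerative and fetal genes, and Ly6d, Cd74 and Icam1 are drawn at the limit of 5.5.

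Among the secretory lineages, genes of Paneth cells, which sit beside the stem cells and release antimicrobial peptides, were mostly higher. Of 29 tested members 20 were called higher and 4 lower, the median member standing at 0.89 on the log2 scale, beside 18.1% and 13.4% of all genes. Their summed level was 6973 to 7394 CPM in WT and 11910 to 12820 CPM in KOCAG. Lyz1, the lysozyme of Paneth granules, had 1028 and 853 CPM in the WT libraries and 1898 and 1755 CPM in the KOCAG libraries, with a log2 fold change of 0.96 (SE 0.11, adjusted p = 1.88e-04). Defa24, a defensin, had 2511 and 2380.0 CPM in the WT libraries and 3589 and 3576 CPM in the KOCAG libraries. Both KOCAG libraries stood above both WT libraries for these granule genes, and 69.7% of all tested genes did not overlap between groups. Mmp7, the protease that activates defensins, rose by 1.55, the ribonuclease Ang4 by 1.94 and the phospholipase Pla2g2a by 2.06. Guca2b, the precursor of uroguanylin and the leading member, had 113 and 118 CPM in the WT libraries and 762 and 528 CPM in the KOCAG libraries, although it is made by several epithelial cell types. The members called lower were Mptx1, from 13.0 and 10.2 to 5.28 and 4.23 CPM, Defa29, Clps and Kit, the receptor of Paneth-like niche cells, with a log2 fold change of -0.73 (adjusted p = 7.46e-04). Wnt3, the Wnt ligand that Paneth cells supply, had a log2 fold change of 0.53 (adjusted p = 0.0537). Defensin genes are close copies of each other, so how reads were shared between them is uncertain.

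Goblet cell genes moved less evenly. Of 29 tested members 14 were called higher and 4 lower, and the median member stood at 0.31 on the log2 scale. Muc2, the gel-forming mucin, had 350.5 and 324 CPM in the WT libraries and 599 and 506 CPM in the KOCAG libraries, and Tff3, the trefoil peptide secreted with it, had 850.3 and 779.8 CPM in the WT libraries and 1474 and 1405 CPM in the KOCAG libraries. Clca1, a secreted protease of mucus, had 148 and 161 CPM in the WT libraries and 757 and 682 CPM in the KOCAG libraries, with a log2 fold change of 2.22 (SE 0.10, adjusted p = 1.93e-06). The lectin gene Zg16 rose by 2.08, and Muc3 and Fer1l6 by 1.54 and 1.54. Muc4, a membrane mucin, went the other way, with 130.2 and 119.7 CPM in the WT libraries and 40.7 and 44.7 CPM in the KOCAG libraries and a log2 fold change of -1.54 (SE 0.09, adjusted p = 5.94e-06). The 4 members called lower were 2 without WT replicate 2. The lineage factor Spdef had a log2 fold change of 0.17 (adjusted p = 0.310).

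Enteroendocrine genes formed the most one-sided secretory list. Of 40 tested members 33 were called higher and 0 lower, the median log2 fold change was 1.00, and 20 members at least doubled. The members summed to 1311 to 1356 CPM in WT and 2985 to 3134 CPM in KOCAG. The hormone gene Gip had 112 and 131 CPM in the WT libraries and 458 and 464 CPM in the KOCAG libraries, with a log2 fold change of 1.92 (SE 0.10, adjusted p = 4.17e-06). The hormone gene Cck had 66.7 and 72.8 CPM in the WT libraries and 259 and 264 CPM in the KOCAG libraries, and Sct, which encodes secretin, had 4.58 and 5.05 CPM in the WT libraries and 18.9 and 16.6 CPM in the KOCAG libraries. The replicates of each genotype lay close together for all 3 hormones. Chga, a granule protein common to these cells, rose from 94.1 and 103 to 299.9 and 260.1 CPM, and in log2 fold change Scg3 rose by 1.81 and the somatostatin gene Sst by 1.09. Neurog3, the factor that starts this lineage, had 11.2 and 13.6 CPM in the WT libraries and 21.1 and 23.3 CPM in the KOCAG libraries, with a log2 fold change of 0.85 (SE 0.16, adjusted p = 0.00340). Neurod1, which acts after it, rose by 1.22. Isl1, Pcsk1 and Rfx3 were among the 7 members that did not pass, with log2 fold changes of 0.28, 0.28 and -0.27.

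Tuft cell genes stood close to the background. Of 19 tested members 4 were called higher and 0 lower, with Alox5 leading at 1.71, and Dclk1 and Trpm5, their usual markers, had log2 fold changes of 0.18 (adjusted p = 0.619) and 0.17 (adjusted p = 0.397). The count of tuft genes was 2 without WT replicate 1. Among 13 genes of secretory progenitors 4 were called higher, or 2 with either WT library left out, and 1 lower. Atoh1, the factor that commits cells to the secretory fate, had 19.4 and 19.7 CPM in the WT libraries and 22.0 and 19.7 CPM in the KOCAG libraries, a log2 fold change of 0.09 (adjusted p = 0.671), and the Notch ligand Dll1 had -0.04. Of 13 Notch pathway genes 2 were called higher (15.4%), the receptor Notch3 at 2.31 and the ligand Jag1 at 1.27. Another 4 were lower (30.8%), among them the effector Rbpj at -0.47 and the target Hes1 at -0.30. Of all genes 18.1% were called higher and 13.4% lower. With either WT library left out the number of Notch genes called lower was 1.

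**Figure D3:**
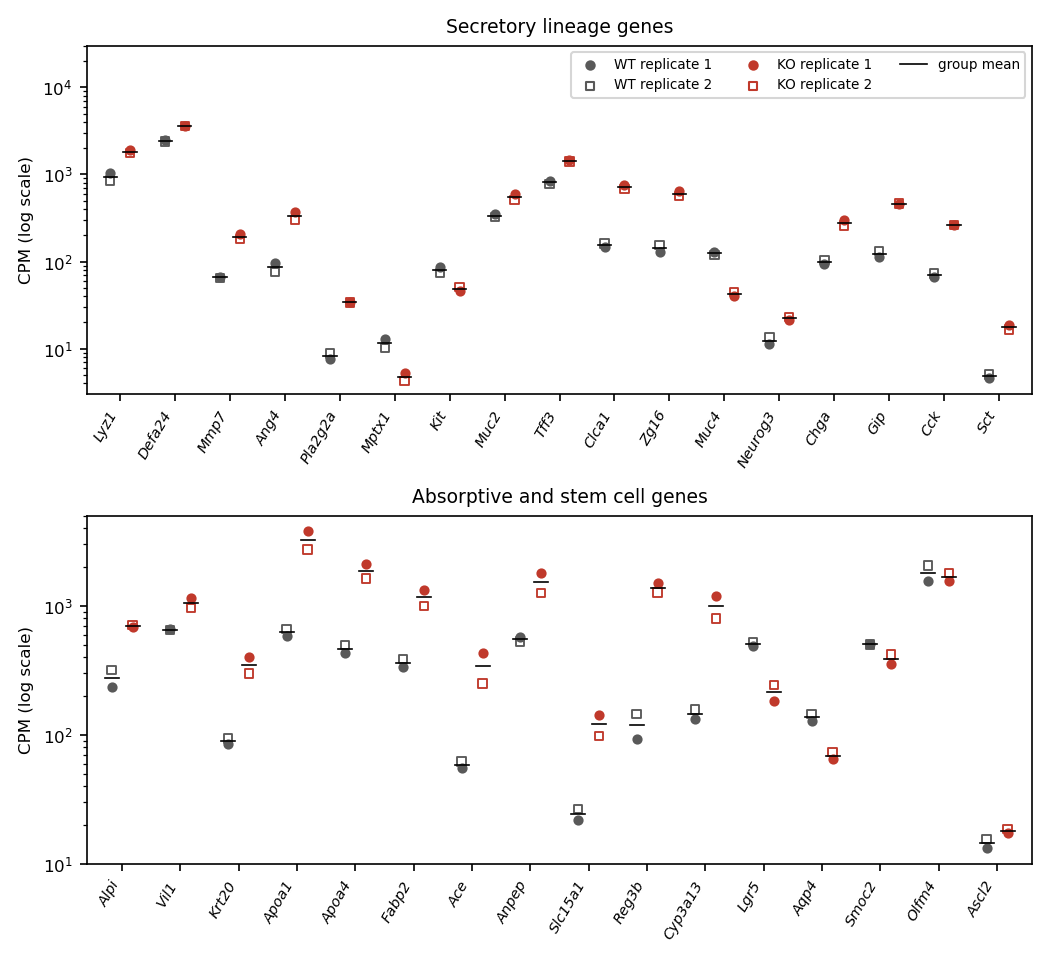
CPM (log scale) of secretory genes (upper panel) and of absorptive and stem cell genes (lower panel) in each library, WT in grey and KOCAG in red, replicate 1 as a filled circle, replicate 2 as an open square and group means as bars. KOCAG stands above WT for Lyz1, Chga, Gip and Apoa1, and below it for Muc4 and Lgr5.

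Enterocyte genes rose in all 4 lists that describe their work. Among brush border hydrolases 19 of 22 tested members were called higher and 1 lower, with a median of 1.47, and among lipid absorption genes 24 of 29 were higher and 2 lower, with a median of 1.09. Of 31 nutrient transporters 26 were higher and 0 lower, with a median of 1.00, and of 34 genes of the enterocyte programme 24 were higher and 2 lower, with a median of 0.88. Alpi, the intestinal alkaline phosphatase that marks mature enterocytes, had 234 and 318 CPM in the WT libraries and 688 and 710.5 CPM in the KOCAG libraries, with a log2 fold change of 1.34 (SE 0.13, adjusted p = 7.38e-05). Ace, a brush border peptidase, had 55.4 and 62.5 CPM in the WT libraries and 431 and 251 CPM in the KOCAG libraries, and was higher in KOCAG replicate 1 than in replicate 2. Apoa1, the apolipoprotein with the largest gain in CPM of all genes, had 583 and 663 CPM in the WT libraries and 3783 and 2739 CPM in the KOCAG libraries, with a log2 fold change of 2.39 (SE 0.15, adjusted p = 6.69e-06). Apoa4 rose from 432 and 497 to 2108 and 1631 CPM, and Fabp2, which carries fatty acids in enterocytes, from 334 and 388 to 1325 and 1003 CPM. The peptide transporter Slc15a1 rose from 22.0 and 26.7 to 144 and 98.0 CPM. Reg3b, a bactericidal lectin, had 93.5 and 145 CPM in the WT libraries and 1498 and 1273 CPM in the KOCAG libraries, with a log2 fold change of 3.54 (SE 0.19, adjusted p = 4.17e-06). For most of these genes KOCAG replicate 1 was the highest of the 4 libraries. The enteropeptidase gene Tmprss15 and the sphingomyelinase gene Enpp7 had the largest log2 fold changes of the hydrolases, 3.07 and 2.96, from low levels.

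Xenobiotic metabolism moved with the enterocyte genes, as 29 of 40 tested members were called higher and 3 lower, with a median of 0.73. Cyp3a13, a cytochrome of drug metabolism, had 132 and 158 CPM in the WT libraries and 1186 and 799 CPM in the KOCAG libraries, with a log2 fold change of 2.77 (SE 0.17, adjusted p = 6.74e-06). Cyp2c29 rose from 88.7 and 125 to 592 and 543 CPM and Cyp3a11 from 129 and 149 to 498 and 503 CPM, though reads of these cytochromes can be shared with close copies. Cyp1a1, the usual target of the aryl hydrocarbon receptor, rose by 3.41 (SE 0.52), from 0.964 and 1.17 to 5.98 and 16.25 CPM, so its KOCAG libraries differed. Cyp1a2, Cyp1b1 and Ahrr of the same list had too few counts to be tested. Cyp2s1 fell instead, from 191 and 186 to 55.9 and 72.5 CPM. Of 31 PPAR target and ketogenesis genes 9 were higher and 3 lower (1 to 5 lower with 1 library left out), with Acot12 at 2.75. Markers of regional identity also differed. The sum of 9 proximal markers was 1487 to 1574 CPM in WT and 2298 to 2555 CPM in KOCAG, and that of 9 distal markers 244 to 264 and 494 to 668 CPM, with the distal gene Fabp6 at or near 0 in all 4. The sum of 9 stomach markers was 11.1 to 13.1 and 56.9 to 68.4 CPM, led by the annexin Anxa10, and that of 7 colon markers 140.5 to 147 and 63.8 to 76.8 CPM, led by Muc4. Their part in the results was not tested.

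Stem cell and Wnt genes went in both directions. Of 42 tested members 5 were called higher and 15 lower, with a median of -0.15. Lgr5, the receptor that marks the cycling stem cell, had 494 and 524 CPM in the WT libraries and 184 and 245 CPM in the KOCAG libraries, with a log2 fold change of -1.25 (SE 0.13, adjusted p = 9.27e-05). The stem cell genes Aqp4 and Smoc2 were lower too, from 129 and 146 to 64.9 and 73.6 CPM for Aqp4 and by a log2 value of -0.38 for Smoc2. Prom1 had a log2 fold change of -0.57, Lrig1 -0.40 and Myc -0.34. Other stem cell genes did not pass the test. Olfm4 had 1573 and 2057 CPM in the WT libraries and 1563 and 1809 CPM in the KOCAG libraries, a log2 fold change of -0.11 (adjusted p = 0.569). Ascl2, a Wnt-driven stem cell factor, had 13.2 and 15.7 CPM in the WT libraries and 17.2 and 18.6 CPM in the KOCAG libraries, a log2 fold change of 0.32 (adjusted p = 0.161), and the Wnt targets Axin2 and Sox9 had -0.13 (adjusted p = 0.295) and 0.16 (adjusted p = 0.194). The 5 members called higher were Tnfrsf19 at 2.32, the Wnt feedback gene Nkd1 at 1.41, Sp5 at 1.20, Cd44 at 0.81 and Ccnd1 at 0.66, all known Wnt targets. Among 22 tested BMP and TGF-beta genes 9 were higher, with Bmp8b at 1.90 and Id4 at 1.85, and 2 lower, Smad6 at -1.35 and Bmp2 at -0.84. The number of stem cell and Wnt genes called lower was 10 to 21 with 1 library left out.

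Genes of the regenerative and fetal state formed the list with the highest median, 1.56. Of 46 tested members 37 were called higher and 3 lower, and 29 rose by at least 2-fold, while 12 further members had too few counts to be tested. Anxa1, a classical gene of the fetal and repairing gut, had 1.81 and 2.98 CPM in the WT libraries and 42.3 and 27.6 CPM in the KOCAG libraries, with a log2 fold change of 3.85 (SE 0.29, adjusted p = 1.80e-05). Ly6a, the Sca-1 surface antigen of the repairing epithelium and 1 of a family of close copies, had 2.77 and 2.72 CPM in the WT libraries and 32.1 and 16.5 CPM in the KOCAG libraries, with a log2 fold change of 3.12 (SE 0.35, adjusted p = 1.56e-04). Clu, which marks revival stem cells, had 11.1 and 37.1 CPM in the WT libraries and 132 and 92.4 CPM in the KOCAG libraries, with a log2 fold change of 2.22 (SE 0.36, adjusted p = 0.00128). The KOCAG libraries were above the WT libraries for all 3, and the WT libraries differed most from each other for Clu. Between the groups 69.7% of all tested genes did not overlap. Il33, an alarmin, had a log2 fold change of 2.38 (SE 0.50, adjusted p = 0.00542), and the mesothelin gene Msln rose from 2.77 and 14.1 to 48.8 and 30.2 CPM. Of the members that encode ligands of the EGF receptor, Ereg had 0.964 and 1.43 CPM in the WT libraries and 13.3 and 9.23 CPM in the KOCAG libraries, with a log2 fold change of 3.22 (SE 0.34, adjusted p = 1.20e-04). Areg had 19.9 and 17.6 CPM in the WT libraries and 135 and 104 CPM in the KOCAG libraries, with a log2 fold change of 2.67 (SE 0.14, adjusted p = 4.17e-06). Hbegf and Tgfa, which encode further ligands, rose by 0.88 and 0.46. The interleukin 1 receptor antagonist Il1rn rose from 6.87 and 5.05 to 54.5 and 35.4 CPM, and S100a6, a calcium-binding protein, from 21.7 and 32.4 to 218 and 161 CPM.

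Cyr61 and Ctgf, which are known as targets of YAP, were among the members called higher, while Ankrd1, another such target, had too few counts to be tested. Cyr61 had 4.46 and 4.41 CPM in the WT libraries and 15.4 and 15.3 CPM in the KOCAG libraries, with a log2 fold change of 1.79 (SE 0.20, adjusted p = 1.63e-04), and Ctgf had 1.32 and 1.55 CPM in the WT libraries and 6.26 and 3.75 CPM in the KOCAG libraries, with 1.76 (SE 0.38, adjusted p = 0.00670). Ajuba, Amotl2 and Lats2, which act in the Hippo pathway upstream of YAP, rose by 1.29, 0.96 and 1.71. The urokinase gene Plau had 2 and 0 counts in the WT libraries and 24 and 18 counts in the KOCAG libraries, a ratio of 18.7 (95% exact interval 4.87 to 160.0), and its receptor gene Plaur rose by 1.77. The 3 members called lower were Hmga2 at -0.68, the RNA-binding protein gene Igf2bp3 at -0.48 and Lamb3 at -0.31. Hmga2 and Igf2bp3 are themselves genes of the fetal state. With Ly6d set at its bound the median of the list was still 1.56. Of 31 tested matrix and adhesion genes 14 were higher and 3 lower (0 to 5 lower with 1 library left out), with the laminin genes Lama3 at 2.15 and Lama5 at 1.33 and the claudin gene Cldn4 at 1.69.

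Targets of p53, the factor that answers DNA damage and other stress with arrest or death, were called higher in 28 of 35 tested members and lower in 0, with a median of 0.96. Their sum was 1572 to 1620 CPM in WT and 3024 to 3272 CPM in KOCAG. Cdkn1a, the inhibitor of cyclin-dependent kinases, had 112 and 126 CPM in the WT libraries and 386 and 321 CPM in the KOCAG libraries, with a log2 fold change of 1.57 (SE 0.11, adjusted p = 1.05e-05). Mdm2, the ligase that degrades p53, had 47.1 and 52.5 CPM in the WT libraries and 119 and 119.5 CPM in the KOCAG libraries, with a log2 fold change of 1.26 (SE 0.09, adjusted p = 1.19e-05). Ccng1 had 104 and 113 CPM in the WT libraries and 369 and 337 CPM in the KOCAG libraries. The spread between replicates of a genotype was small beside the gap between genotypes for these 3 genes. Among targets that promote death, Bax rose by 1.09, Bbc3 by 1.15, Fas by 1.03, Phlda3 by 2.57 and the receptor gene Eda2r by 2.26. Ddit4l had the largest log2 fold change of the list, 3.60 (SE 0.30, adjusted p = 3.36e-05), from 0.964 and 1.55 to 13.2 and 17.1 CPM. Trp53 itself, whose protein is controlled by stability rather than mRNA, had a log2 fold change of 0.07 (adjusted p = 0.584). The repair genes Ddb2 and Xpc, whose products recognise ultraviolet damage with CUL4 ligases, had -0.36 (adjusted p = 0.159) and -0.24 (adjusted p = 0.175).

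**Figure D4:**
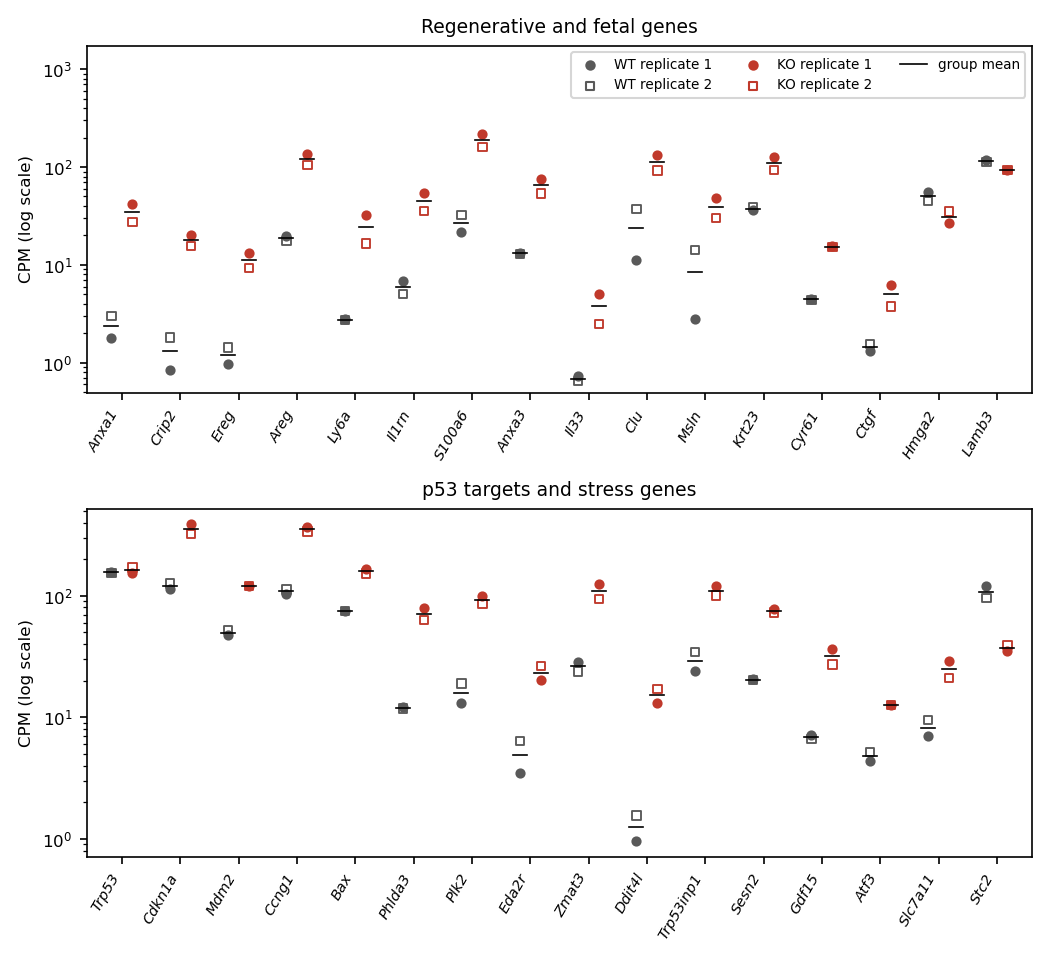
CPM (log scale) of regenerative and fetal genes (upper panel) and of p53 targets and other stress genes (lower panel) in each library, drawn as WT in grey and KOCAG in red, with replicate 1 filled, replicate 2 open and bars at group means. Anxa1, Ereg, Areg, Cdkn1a and Mdm2 stand higher in both KOCAG libraries, Hmga2, Lamb3 and Stc2 lower, and Trp53 at a like level in all 4.

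Other stress programmes were less uniform. Of 37 tested genes of the integrated stress response, which is driven by ATF4, 8 were higher and 9 lower, or 5 lower with either WT library left out. Gdf15, a stress hormone, had 7.11 and 6.61 CPM in the WT libraries and 36.3 and 27.2 CPM in the KOCAG libraries, with a log2 fold change of 2.20 (SE 0.19, adjusted p = 4.10e-05), and Sesn2, also a p53 target, had 20.5 and 20.2 CPM in the WT libraries and 77.3 and 72.8 CPM in the KOCAG libraries. The cystine transporter Slc7a11 rose by 1.59 and Atf3 by 1.41, while Stc2 fell from 120.0 and 95.6 to 34.9 and 39.3 CPM. The shares of the integrated stress list, 21.6% higher and 24.3% lower, stood beside 18.1% and 13.4% of all genes. Members that did not pass included Asns at -0.05, Psat1 at 0.10 and Trib3 at 0.52. Among 30 genes of the unfolded protein response 15 were called higher and 1 lower, with a median of 0.27 and a largest rise of 0.70 for the sensor kinase Eif2ak3. That count was 5 without WT replicate 1 and 10 without WT replicate 2.

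Genes of NRF2 and oxidative defence were higher in 19 of 30 tested members and lower in 0, with a median of 0.35. The NRF2 target Srxn1 had 50.7 and 58.7 CPM in the WT libraries and 136 and 113 CPM in the KOCAG libraries, and Osgin1 rose by 1.92. Without WT replicate 1 the count was 11. Of 21 glutathione S-transferase genes 12 were higher and 1 lower, with Gsta1 going from 143 and 159 to 570.4 and 545 CPM and Gsta4 from 145 and 164 to 497 and 426 CPM, although Gsta1 and Gsta2 are near-identical. Of 17 heat shock genes 3 were higher and 1 lower, with 1 higher with either WT library left out and 5 without KOCAG replicate 1. The lower count was 5 without KOCAG replicate 2, above the 3 then higher, and 0 with either WT library left out. The heat shock shares, 17.6% higher and 5.88% lower, stood beside 18.1% and 13.4% of all genes. Hspa1b had 4.10 and 4.54 CPM in the WT libraries and 16.5 and 9.71 CPM in the KOCAG libraries and shares reads with Hspa1a. The metallothionein and zinc list had 5 of 10 higher, 3 with either WT library left out, among them Mt1, from 615 and 682 to 1375 and 1150.0 CPM. Of 24 genes of cell death 13 were higher and 2 lower. Gsdmd, the pore protein of pyroptosis, had 54.1 and 53.5 CPM in the WT libraries and 156 and 135 CPM in the KOCAG libraries, while Pycard and Casp1, parts of the inflammasome, had log2 fold changes of -0.87 and -0.50.

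Interferon response genes were called higher in 30 of 42 tested members and lower in 1, Gvin1, with a median of 0.90. Most were expressed at low levels in both genotypes, and 16 further members had too few counts. Isg15, a ubiquitin-like protein, had 0.723 and 0.907 CPM in the WT libraries and 5.70 and 3.75 CPM in the KOCAG libraries, with a log2 fold change of 2.49 (SE 0.41, adjusted p = 0.00149). Irf7, the factor that amplifies interferon signalling, had 6.38 and 9.33 CPM in the WT libraries and 34.2 and 23.0 CPM in the KOCAG libraries, with a log2 fold change of 1.85 (SE 0.24, adjusted p = 3.63e-04). Of the genes that sense or degrade viral RNA, Ifit1 rose by 2.16, Oasl2 by 1.79, Oas3 by 2.46 and Ddx60 by 1.73. Of members that serve antigen presentation through class I, B2m rose by 1.08, H2-K1 by 0.91 and the immunoproteasome subunit Psmb8 by 1.92. Cd74, the invariant chain of class II, had 0 and 0 counts in the WT libraries and 12 and 14 counts in the KOCAG libraries and was at least 3.76-fold higher against a floor of 3 counts, while the class II gene H2-Ab1 had a log2 fold change of -0.65 (adjusted p = 0.134). Irgm1, an immunity-related GTPase, had a log2 fold change of 0.15 (adjusted p = 0.442).

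Inflammatory genes were called higher in 13 of 23 tested members and lower in 1. Csf1, the growth factor of macrophages, had 0.482 and 1.30 CPM in the WT libraries and 8.62 and 7.88 CPM in the KOCAG libraries, with a log2 fold change of 3.21 (SE 0.38, adjusted p = 2.34e-04). The chemokine genes Cxcl16 and Ccl20 rose by 2.54 and 1.64, and the cytokine gene Il18 by 1.75. Ccl28, a chemokine for plasma cells, fell from 73.0 and 74.6 to 24.2 and 37.0 CPM. The summed level of 17 leukocyte markers was 5.96 to 7.35 CPM in WT and 10.3 to 13.6 CPM in KOCAG. Of these, Ptprc, the defining leukocyte antigen, had 0 and 0 counts in WT and 1 and 7 counts in KOCAG, 6 markers including Cd8a, Adgre1 and Tyrobp were at 0 in all 4 libraries, and Csf1r rose by 2.77 on the log2 scale (adjusted p = 0.00292). Their part in these results was not tested.

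The promoters of the interferon list were read for the core of the interferon-stimulated response element, written as GAAA, then 2 bases of any kind, then GAAA, on both strands of RefSeq windows from 250 bases before to 50 bases after each start site (build GRCm38.p6). Windows existed for 24 of the 30 members called higher, and 13 of their 28 windows (46.4%) held the motif, in 12 of the genes, beside 3.44% of all 32851 windows. The list was chosen as interferon response genes, and its members that were not called were not searched. This share therefore describes the list and says nothing about the deletion. The 250 bases before the start site are shown for the 2 members with the largest fold change among those with a window that holds it, Isg15 at chr4:156200819-156201068, minus strand, and Oas3 at chr5:120777660-120777909, minus strand. Capitals mark the motif on the strand of the gene.
Isg15: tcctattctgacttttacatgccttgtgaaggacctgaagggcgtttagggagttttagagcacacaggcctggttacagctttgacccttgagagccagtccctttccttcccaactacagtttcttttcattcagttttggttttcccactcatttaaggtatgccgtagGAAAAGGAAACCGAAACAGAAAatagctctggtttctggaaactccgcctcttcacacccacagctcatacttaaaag
Oas3: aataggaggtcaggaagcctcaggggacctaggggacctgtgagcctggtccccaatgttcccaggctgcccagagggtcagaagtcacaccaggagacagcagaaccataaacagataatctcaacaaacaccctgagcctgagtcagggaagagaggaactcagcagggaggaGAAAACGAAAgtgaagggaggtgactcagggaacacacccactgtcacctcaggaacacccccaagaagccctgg

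Among the genes that fell, those of hypoxia and glycolysis formed the list with the lowest median. Of 35 tested members 26 were called lower and 2 higher, with a median of -0.73, beside 13.4% of all genes called lower. Their sum was 11630 to 11960 CPM in WT and 7022 to 7868 CPM in KOCAG. Bnip3, which marks mitochondria for removal, had 53.1 and 53.8 CPM in the WT libraries and 12.7 and 15.8 CPM in the KOCAG libraries, with a log2 fold change of -1.89 (SE 0.13, adjusted p = 1.05e-05). Pdk1, the kinase that closes the pyruvate dehydrogenase step, had 288 and 284 CPM in the WT libraries and 86.5 and 120.1 CPM in the KOCAG libraries, with a log2 fold change of -1.46 (SE 0.13, adjusted p = 4.69e-05). Slc16a3, which exports lactate, had 167 and 153 CPM in the WT libraries and 54.5 and 68.1 CPM in the KOCAG libraries. KOCAG replicate 1 was the lowest of the 4 libraries for each of these genes. The prolyl hydroxylases P4ha1, P4ha2 and Egln3 had log2 fold changes of -1.22, -1.33 and -1.14, Car9 -0.86 and the angiogenic factor Vegfa -0.73. Enzymes of glycolysis fell at high expression. Pgk1 had 1405 and 1337 CPM in the WT libraries and 614 and 756 CPM in the KOCAG libraries (adjusted p = 1.58e-04), and Pfkl fell from 458 and 437 to 194 and 253 CPM. Aldoa had a log2 fold change of -0.94, Gpi1 -0.86 and Ldha -0.29. The glucose transporter Slc2a1 had -0.11 (adjusted p = 0.336) and the hexokinase Hk2 0.03 (adjusted p = 0.829). The 2 members called higher were those for the factors themselves, Hif1a, from 67.0 and 74.1 to 124 and 117 CPM, and Epas1, from 28.6 and 32.9 to 47.0 and 48.8 CPM. Leaving out 1 library gave 21 to 27 members called lower.

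The same windows were read for ACGTG, the core that hypoxia-inducible factors bind. Windows existed for 23 of the 26 members called lower, and 20 of their 36 windows (55.6%) held the letters, in 17 of the genes, beside 19.6% of all windows. This list too was chosen by function and its other members were not searched, so the share says nothing about the deletion. The 250 bases before the start site are shown for the 2 members with the largest fall among those with a window that holds it, Bnip3 at chr7:138909507-138909756, minus strand, and Ankrd37 at chr8:45999851-46000100, minus strand. Capitals mark ACGTG on either strand, and in Bnip3 the matches on both strands overlap.
Bnip3: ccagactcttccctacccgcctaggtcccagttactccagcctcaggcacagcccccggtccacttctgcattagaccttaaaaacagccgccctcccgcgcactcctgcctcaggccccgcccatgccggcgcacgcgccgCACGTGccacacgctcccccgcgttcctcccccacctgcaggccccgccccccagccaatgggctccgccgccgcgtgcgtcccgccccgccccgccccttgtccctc
Ankrd37: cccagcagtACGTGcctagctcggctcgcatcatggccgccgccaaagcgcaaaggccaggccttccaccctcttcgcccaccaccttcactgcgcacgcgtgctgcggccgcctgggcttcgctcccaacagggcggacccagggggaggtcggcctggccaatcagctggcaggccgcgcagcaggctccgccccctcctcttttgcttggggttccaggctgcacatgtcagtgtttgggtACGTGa
Ankrd37, a target of these factors, had 25.3 and 31.2 CPM in the WT libraries and 5.14 and 13.8 CPM in the KOCAG libraries, with a log2 fold change of -1.50 (SE 0.31, adjusted p = 0.00486). For the regenerative list, GGAATG, the core that TEAD factors bind with YAP, was searched as well, but windows existed for only 24 of 37 members (64.9%), under the 80% taken as the least for such a check, so it is void. The hypoxia and interferon lists met that share.

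Genes of sterol and fatty acid synthesis were called lower in 21 of 36 tested members and higher in 0, with a median of -0.33. Fads1, a desaturase, had 224 and 242 CPM in the WT libraries and 98.4 and 128 CPM in the KOCAG libraries, with a log2 fold change of -1.03 (SE 0.12, adjusted p = 1.80e-04), and was the 1 member lower by at least 2-fold. Acss2, which makes acetyl-CoA from acetate, had 175 and 172 CPM in the WT libraries and 96.1 and 104 CPM in the KOCAG libraries, and the sterol enzymes Mvd and Sqle had log2 fold changes of -0.74 and -0.53. The count was 13 without WT replicate 2.

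Ribosomal protein genes fell together by a small amount. Of 79 members 70 were called lower and 0 higher, the median log2 fold change was -0.56, and 78 of 79 had a negative value. They summed to 79290 to 88190 CPM in WT and 54230 to 59380 CPM in KOCAG. Rpl3 had 2023 and 1865 CPM in the WT libraries and 1033 and 1261 CPM in the KOCAG libraries, with a log2 fold change of -0.76 (SE 0.11, adjusted p = 7.77e-04). Rpl21 and Rpl7a, the 2 members lower by at least 2-fold, had 176 and 156 CPM in the WT libraries and 55.7 and 60.3 CPM in the KOCAG libraries for Rpl21 and a log2 fold change of -1.21 for Rpl7a. Ribosomal protein genes have many processed copies in the genome that can take their reads. Ribosome biogenesis factors did not follow, as 3 of 48 were called higher and 1 lower, with a median of -0.04 and Npm1 at -0.43. Without KOCAG replicate 2 the lower count was 16, and without KOCAG replicate 1 the higher count was 9.

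Cell division genes were lower by less than 2-fold. Of 42 mitosis genes 17 were called lower (40.5%) and 0 higher, with a median of -0.37. Of 47 DNA replication genes 11 were lower (23.4%) and 0 higher, with a median of -0.21. Among all tested genes 13.4% were called lower and 18.1% higher. Mki67, which marks cycling cells, had 503 and 457 CPM in the WT libraries and 287 and 354 CPM in the KOCAG libraries, with a log2 fold change of -0.58 (SE 0.11, adjusted p = 0.00356). The thymidine kinase gene Tk1 had 96.6 and 93.5 CPM in the WT libraries and 54.6 and 67.2 CPM in the KOCAG libraries. KOCAG replicate 1 was lower than replicate 2 for both, and the replication list summed to 2983 CPM in KOCAG replicate 1 and 3656 CPM in replicate 2, beside 3863 to 3897 CPM in WT. Without KOCAG replicate 2 the counts called lower rose to 35 and 32, and without WT replicate 2 they were 14 and 7. Among 74 nuclear genes of oxidative phosphorylation 10 were called higher and 1 lower, with a median of 0.07, and that count was 0 without WT replicate 2. Without WT replicate 1 it was 3. Of 15 mitochondrially encoded genes 2 were higher and 1 lower, or 0 higher without WT replicate 1, 1 higher without WT replicate 2 and 5 lower without KOCAG replicate 1.

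**Figure D5:**
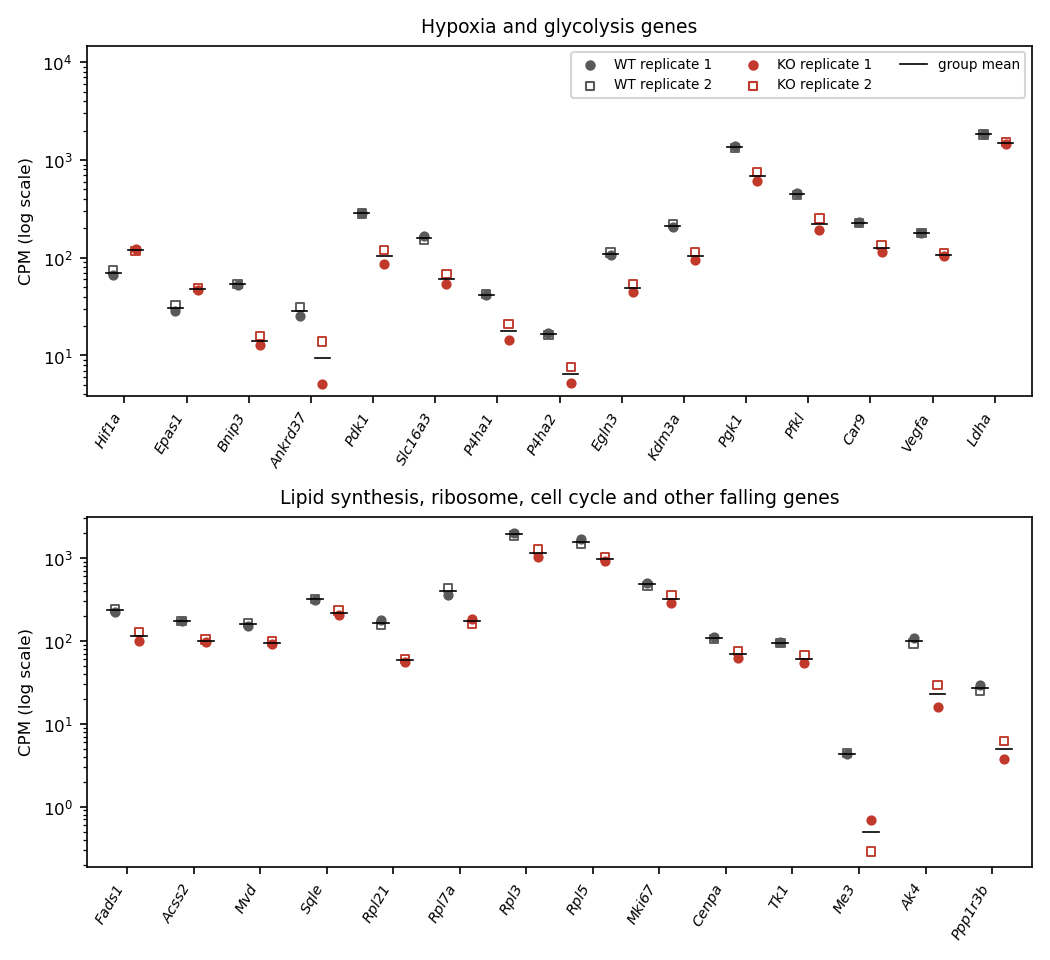
CPM (log scale) of hypoxia and glycolysis genes (upper panel) and of lipid synthesis, ribosomal protein, cell cycle and other genes that fell (lower panel) in each library, with WT grey, KOCAG red, replicate 1 filled, replicate 2 open and group means as bars. Hif1a and Epas1 are the genes drawn that stand higher in KOCAG, and the others stand lower in both of its libraries.

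Weighed by transcripts rather than by fold, the changed genes with the largest gain in CPM, listed here after their values were seen, were Apoa1, Apoa4, Reg3b, Apob, Anpep, Cyp3a13, Mttp, Fabp2, Reg1, Rbp2, Clca1 and Guca2b. Most of them handle lipids, vitamin A or peptides in enterocytes, and Reg1, a secreted lectin, had 509.9 and 782 CPM in the WT libraries and 1096 and 1547 CPM in the KOCAG libraries. Those with the largest loss were Gm8979, Dmbt1, Pgk1, 9130208D14Rik, Lgr5, Rpl7a, Pdk1, Pdcd4, Cyp2s1, Fads1, Ero1l and Gm27149. Dmbt1, a scavenger protein of mucosal defence, had 1324 and 1514 CPM in the WT libraries and 404 and 556 CPM in the KOCAG libraries, with a log2 fold change of -1.56 (SE 0.14, adjusted p = 5.48e-05). Pdcd4, an inhibitor of translation, had 252 and 203 CPM in the WT libraries and 96.1 and 97.8 CPM in the KOCAG libraries, with a log2 fold change of -1.23. Gm8979 had 1313 and 1109 CPM in the WT libraries and 226 and 228 CPM in the KOCAG libraries, a log2 fold change of -2.41, and 9130208D14Rik had a log2 fold change of -1.78. Both are annotated as unprocessed pseudogenes on chromosome 7, close to Gvin1. Their reads can come from near-identical genes such as Gvin1, so their sizes are uncertain.

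The series also holds organoids in which Cul4b was deleted in the intestinal epithelium of the mouse before culture by pVillin-Cre (pVillin-Cre; Cul4b fn/Y, KOIEC), with 2 WT and 2 KOIEC libraries. Whether the effect of deletion differed between the experiments was tested as an interaction in 1 fit over 14957 genes, in which the biological coefficient of variation was 0.206. It called 11 genes (0.0735%), 9 with a higher (0.0602%) and 2 with a lower log2 fold change in KOCAG (0.0134%), and 1819 genes had an unadjusted p under 0.05. In simulated counts this interaction test recovered 2% of 2-fold and 40.8% of 4-fold differences. Genes that were not called may therefore still differ between the experiments. Areg rose by 2.66 in KOCAG and had -0.84 in KOIEC, a difference of 3.50 (adjusted p = 0.0199). Pla2g2a had 2.05 and -3.19, a difference of 5.24 (adjusted p = 0.0231). Sesn2 had 1.87 and 0.09, a difference of 1.78 (adjusted p = 0.0375). Of the 11 genes, 4, Ang4, Defa20, Defa34 and Pla2g2a, are genes of Paneth cells. Without KOIEC replicate 1 the fit called 2781 genes and without KOIEC replicate 2 it called 808, while without any other single library it called 0, so the number depends on which library is left out. With both organoid experiments in 1 fit, the KOCAG comparison itself gave 287 changed genes.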

How the data were processed

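RNA was sequenced from 4 organoid libraries, 2 per genotype, grouped by their labels. The authors deposited raw read counts per gene, and the submitters' processing notes name HISAT2 2.0.5 and featureCounts 1.5.0-p3. The genome build, the annotation and the strand setting are not given in the sources used here. Start and end of 12273 of 13579 tested genes (90.4%) equalled those of GENCODE M21 on GRCm38. The separate table of crypt libraries was not used.

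Counts were filtered with filterByExpr of edgeR 4.0.16 (R 4.3.3), scaled by TMM and tested gene by gene with glmQLFit and glmQLFTest, KOCAG against WT, with Benjamini-Hochberg adjustment. CPM were computed from the TMM-scaled totals. The standard error (SE) was obtained as |log2 fold change| over the root of the F statistic. A gene was called at an adjusted p under 0.05 and changed if it also differed by at least 2-fold. For genes with 3 counts or fewer in each WT library, exact 95% intervals or a floor of 3 counts were used, which cover counting error only. These ratios and bounds used library totals without TMM scaling. The difference between the organoid experiments was an interaction in 1 edgeR fit over 52525 genes found in both tables.

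The named genes are the 15 protein-coding changed genes with the largest rise and the 15 with the largest fall that had at least 20 counts in each library of the higher group, no overlap between groups and 1 direction in every fit that left out a library, and from each list up to 5 called members with the largest change. Some genes that met this rule are not reported here. Cul4b, Cul4a and Irgm1 are named besides. Other members of the lists that are named were chosen after their values were seen. The comparison, the members and the lists were chosen with earlier results of these data known.

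DESeq2 1.42.0 was an alternative. Others were the scaling, the filter, a replicate block, a fit over both organoid experiments, glmTreat, and leaving out each library. The scripts were tested on simulated data. Deviations of libraries of the same replicate number had a correlation of 0.0669 across genes, from 2 pairs. So few pairs cannot exclude a shared animal or batch, and the libraries were treated as unpaired. Counts of replicates differed by more than sampling noise (chi-square per degree of freedom 3.76 in WT and 6.47 in KOCAG), and each library was counted as 1 sample. This excess does not show that replicates came from separate animals.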

Additional observations from a re-analysis of the deposited data

Results flagged for a closer look

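The difference of the deletion effect between the organoid experiments passed the interaction test in 11 genes, each given as the log2 fold change in KOCAG minus that in KOIEC, with the adjusted p of the edgeR fit. The difference was positive for Pla2g2a (5.24, adjusted p = 0.0231) and Abcb1b (4.83, adjusted p = 0.0375). Ascl2, a stem cell factor, had a difference of 3.89 (adjusted p = 0.0375), with log2 fold changes of 0.30 in KOCAG and -3.59 in KOIEC. Areg had 3.50 (adjusted p = 0.0199). Among Paneth cell genes Ang4 had 2.65 (adjusted p = 0.0372), Defa20 2.58 (adjusted p = 0.0375) and Defa34 2.21 (adjusted p = 0.0372). Rnase1 had 1.98 (adjusted p = 0.0437) and Sesn2 1.78 (adjusted p = 0.0375). The difference was negative for Gm8979 (-2.94, adjusted p = 0.0395) and 9130208D14Rik (-2.04, adjusted p = 0.0375), whose reads are uncertain. Each of the 11 kept its sign when any 1 of the 8 libraries was left out, and each lost its call without any 1 library other than a KOIEC library. The experiments also differ in Cre driver and in the time of deletion, and their libraries were deposited as separate sets. Their WT libraries differed as well, Gm8979 having 1230 and 1040 CPM beside KOCAG and 214 and 245 CPM beside KOIEC. Sesn2 had 19.2 and 19 CPM in the former and 49.7 and 47.3 CPM in the latter. These differences between the experiments cannot be told apart here.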

How the results depend on the processing

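Changed genes numbered 1169 (865 higher, 304 lower) and stayed within 1.5 times of these counts under other scalings and filters. With both organoid experiments in 1 fit there were 287 (235 higher, 52 lower), and with the adjusted p alone 4278 (2455 higher, 1823 lower). Genes lower in KOCAG numbered 173 with the DESeq2 Wald test and 171 with glmTreat against 1.5-fold. The share of changed genes that were higher was 74.0%, 79.7% with DESeq2 and 67.8% without KOCAG replicate 1. Leaving out 1 library gave 971 to 1337 changed genes. With a replicate block there were 1209, of which 1159 were shared, and Cul4b stayed at -4.02. The interaction called 11 genes, 2 with a replicate block, 281 with DESeq2 and 0 to 2781 with 1 library left out. The causes were not tested. Of 190 named genes 66 kept their call in every alternative that tested them, 124 lost it in at least 1, and 0 reversed. The filter of at least 10 counts in every library left 39 of them untested, and leaving out a library up to 2.

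Counts per list shrank most in the fit over both experiments, with 12 regenerative genes, 13 p53 targets, 12 genes of the enterocyte programme, 6 Paneth, 5 interferon and 2 enteroendocrine genes called higher, and 20 ribosomal protein and 4 hypoxia genes called lower. The depth and 2 libraries a group leave genes near the floor of 3 counts poorly measured.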
